A study of Mus musculus with 15 samples.

Results

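The genes described are 10 heat shock chaperones of adult mouse cortex, taken by name from an RNA-seq table: *Hspa1a*, *Hspa1b*, *Hspa5*, *Hspa8*, *Hsp90aa1*, *Hsp90ab1*, *Hsph1*, *Dnajb1*, *Hspb1* and *Hspd1*. They are 10 of the 23235 genes of that table and 10 of the 10297 genes whose FPKM averaged 1 or more over the groups, called tested genes below. FPKM is the number of sequenced fragments scaled to the length of the transcript and to the depth of the library. They were taken by name and not by their values, but earlier results of these data were known when they were chosen. Levels of different genes are compared on that scale only.

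Heat shock proteins are chaperones that hold, fold or unfold other proteins. HSP70 proteins bind exposed stretches of a client with energy from ATP, HSP40 proteins (J proteins) bring clients and trigger the ATP step, and HSP110 proteins exchange the nucleotide so that the client is released. HSP90 proteins act later, on kinases and steroid receptors, small heat shock proteins hold unfolded clients without ATP, and chaperonins fold them inside a chamber. Many of these genes are switched on by heat shock factor 1, which binds repeats of the unit GAA in alternating orientation (heat shock elements), and in brain their transcripts are known to follow body temperature, sleep loss and stress.

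The RNA-seq groups were adult male mice of wild type (WT, strain C57BL/6J) and of *Snord116del* (+/-) (strain B6(Cg)-Snord116tm1.1Uta/J), which lack the *Snord116* snoRNA cluster and the host transcript *116HG* on the paternal chromosome, the copy that is expressed in brain. Cortex was taken at Zeitgeber time (Zt) +6, in the light phase, from 3 WT and 2 *Snord116del* mice, and at Zt +16, in the dark phase, from 2 WT and 2 *Snord116del* mice. The table has 1 FPKM per gene and group and no value per mouse, so no standard deviation was available and no test was run here, and the values do not show whether a difference exceeds the spread between mice. The authors' own test results between genotypes stand in the same table and were not used. In this text a gene is called higher or lower where FPKM + 1 differs by at least 1.5-fold (0.58 on the log2 scale) with at least 1 FPKM in the higher group, and log2 ratios are of FPKM + 1, which understates changes of low genes. The study also isolated the DNA that stays with *116HG* in whole adult brain (ChIRP-seq), with lists of peaks for 5 libraries.

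Some facts of the whole table bear on every value below. The median log2 ratio of *Snord116del* over WT over the tested genes was 0.57 at Zt +6 and 0.35 at Zt +16, not 0, and setting the same median FPKM in every group moved the median ratio by -0.63 and by -0.34. The *Snord116* rows are listed at 0 in all 4 groups, WT included, and so do not check the deletion. *Ipw*, a noncoding transcript of the same locus, had 21.6 FPKM (WT) against 3.40 (*Snord116del*) at Zt +6 and 3.17 against 1.82 at Zt +16. Its WT value at Zt +16 was thus as low as the *Snord116del* value at Zt +6, so *Ipw* does not check the deletion either. The labels of 1 of the 3 WT mice and of both *Snord116del* mice at Zt +6 name another table. Those of the other mice name the one used here. The table used was assumed to hold all 9 mice, as the paper's methods list them. In whole cortex, fewer cells of a type and less RNA per cell cannot be told apart.

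The levels of the chaperones spanned a wide range, and their order was nearly the same in every group. *Hspa8* had the highest level in all 4 groups, followed by *Hsp90ab1* and *Hsp90aa1*, and *Hspd1*, *Hspa1a* and *Hspa1b* had the lowest, in that order, and only *Hspa5*, *Hspb1*, *Dnajb1* and *Hsph1* exchanged places between them. Summed over the 10 genes, FPKM came to 762 (WT) against 1022 (*Snord116del*) in the light phase and to 783 against 1060 in the dark phase. *Hspa8* alone made up 61.4%, 56.0%, 64.0% and 65.2% of these sums in the same order. As a share of all FPKM in the table, the 10 genes took 0.478%, 0.638%, 0.362% and 0.310%. The total of all FPKM itself differed, at 159300, 160199, 216422 and 342188 in the same order. The lower shares at Zt +16 thus go with larger totals and not with smaller sums of the 10 genes.

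**Figure D1:**
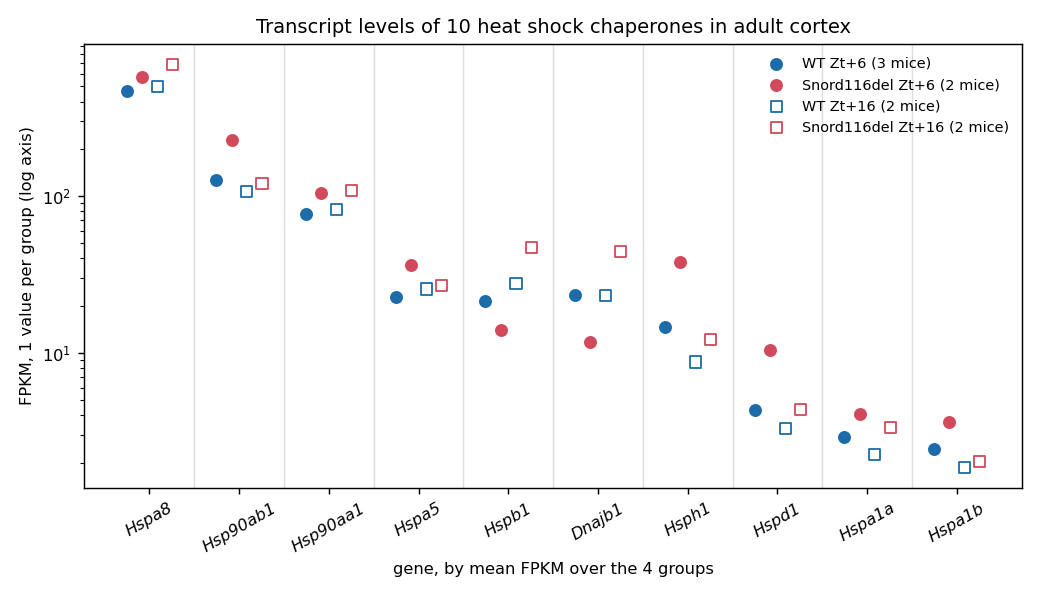
FPKM of the 10 chaperones on a log axis, 1 point per group (circles Zt +6, squares Zt +16, blue WT, red *Snord116del*), ordered by mean FPKM; each point is the authors' group value and has no error bar. *Hspa8* lies between 468 and 692 FPKM and *Hspa1b* between 1.85 and 3.62, and *Dnajb1* and *Hspb1* are the genes whose red circle lies below the blue circle.

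*Hspa1a* and *Hspa1b* encode the stress-inducible HSP70 of the cytosol. They lie near each other on chromosome 17, without introns, at chr17:35106144-35109069 and chr17:35093381-35096183 (mm9, minus strand). Their promoters are shown because each holds a heat shock element. The 250 bases before the start, from RefSeq (GRCm38.p6, chr17:34972157-34972406 and chr17:34959239-34959488, minus strand), have the 2-unit heat shock element in capitals.
Hspa1a: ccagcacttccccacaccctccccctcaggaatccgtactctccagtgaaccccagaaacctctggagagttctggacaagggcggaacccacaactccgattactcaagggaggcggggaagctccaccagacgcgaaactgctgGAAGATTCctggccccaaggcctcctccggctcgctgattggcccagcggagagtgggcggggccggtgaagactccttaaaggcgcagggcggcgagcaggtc
Hspa1b: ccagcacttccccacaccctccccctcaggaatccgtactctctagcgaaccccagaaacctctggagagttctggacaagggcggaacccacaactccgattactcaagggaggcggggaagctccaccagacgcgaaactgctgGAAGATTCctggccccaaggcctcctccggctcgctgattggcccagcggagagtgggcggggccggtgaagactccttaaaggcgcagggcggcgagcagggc
Both elements begin 104 bases before the start. The stretches differ at 3 of 250 bases, C44T, T47C and T249G, counted from 1 at the 5′ end with the *Hspa1a* base first. A 2-unit element (GAANNTTC or TTCNNGAA, on both strands) is in 15.8% of the 15677 genes of the table with a promoter in RefSeq, so the match by itself is common.

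At Zt +6 *Hspa1a* had 2.91 FPKM in WT against 4.10 in *Snord116del*, and at Zt +16 2.26 against 3.36. *Hspa1b* had 2.44 and 3.62 FPKM at Zt +6 and 1.85 and 2.04 at Zt +16. These were the lowest levels of the group: *Hspa1a* stood between the 36.8 and 47.2 percentiles of the tested genes and *Hspa1b* between 30.2 and 40.7. Neither gene was called higher or lower between genotypes, with log2 ratios of 0.38 and 0.42 for *Hspa1a* and 0.43 and 0.09 for *Hspa1b* at Zt +6 and Zt +16. The call for this pair was between times in *Snord116del*, where *Hspa1b* was lower at Zt +16 (log2 ratio -0.60, but -0.23 and not called with the same median in every group) and *Hspa1a* was not called (-0.23). Of the *Hspa1a* transcript, 74.0% is found at *Hspa1b* in stretches of at least 100 bases with at least 98% identity, and 78.5% of *Hspa1b* at *Hspa1a*, so the split of reads between them is uncertain.

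*Hspa8* encodes the constitutive HSP70 of the cytosol, which in neurons also strips clathrin from vesicles. It was the most abundant of the 10, with 468 FPKM in WT against 572 in *Snord116del* at Zt +6 and 501 against 692 at Zt +16, between the 99.1 and 99.9 percentiles of the tested genes. Both *Snord116del* values lay above both WT values on the deposited scale, but with the same median in every group the ratio at Zt +6 was -0.54. The log2 ratios were 0.29 at Zt +6 and 0.46 at Zt +16, below and above the median of all tested genes, and neither was called; with quantile normalization the ratio at Zt +6 was 1.19 and was called. *Hspa8* lies on chromosome 9, chr9:40609067-40613283 (mm9, plus strand), and 87.9% of its transcript is found at 3 other places of the genome at 98% identity or more, which adds uncertainty to its level. The 5 tested genes with the most similar profile over the 4 groups were *Hprt*, *Hepacam*, *Nudt5*, *Tfg* and *Itfg2*, at distances of 0.017 to 0.030 between centred log2 profiles. *Hprt*, the first of them, had 19.1, 23.8, 20.8 and 29.2 FPKM in the order used for *Hspa8*.

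*Hspa5* encodes BiP, the HSP70 of the endoplasmic reticulum. Its promoter, from RefSeq (GRCm38.p6, chr2:34771840-34772089, plus strand), is shown because it differs from those above: it holds no heat shock element in the searched window and does hold the endoplasmic reticulum stress element, CCAAT and CCACG with 9 bases between them, in capitals. This motif was added to the search after the other results were known.
Hspa5: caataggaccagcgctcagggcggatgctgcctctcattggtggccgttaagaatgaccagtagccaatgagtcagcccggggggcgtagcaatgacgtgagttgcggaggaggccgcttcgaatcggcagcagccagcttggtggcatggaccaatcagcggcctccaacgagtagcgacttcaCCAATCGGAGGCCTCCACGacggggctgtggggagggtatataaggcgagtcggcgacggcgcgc
The element begins 65 bases before the start and, on either strand, is in 0.153% of the promoters. At Zt +6 *Hspa5* had 22.8 FPKM in WT against 36.5 in *Snord116del*, and at Zt +16 25.5 against 26.8. The *Snord116del* Zt +6 value stood above the other 3, which lay close together, and *Hspa5* was called higher in *Snord116del* at Zt +6 (log2 ratio 0.65) and not at Zt +16 (0.07). With the same median in every group the ratio at Zt +6 was -0.15, of the opposite sign. The FPKM of *Hspa5* was 0.049 (WT) and 0.064 (*Snord116del*) of that of *Hspa8* at Zt +6, and 0.051 and 0.039 of it at Zt +16.

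*Hsp90aa1* and *Hsp90ab1* encode the inducible and the constitutive HSP90 of the cytosol. At Zt +6 *Hsp90aa1*, at chr12:111928815-111940938 (mm9, minus strand), had 76.5 FPKM in WT against 104 in *Snord116del*, and at Zt +16 82.4 against 108. *Hsp90ab1*, at chr17:45704724-45710220 (mm9, minus strand), had 126 and 227 FPKM at Zt +6 and 106 and 121 at Zt +16. *Hsp90aa1* was thus ordered by genotype, with both *Snord116del* values above both WT values on the deposited scale (but a ratio of -0.38 at Zt +6 with the same median in every group), while *Hsp90ab1* was high in the *Snord116del* Zt +6 group and close together in the other 3. *Hsp90ab1* was called higher in *Snord116del* at Zt +6 (log2 ratio 0.85) and not at Zt +16 (0.18), and *Hsp90aa1* at neither time (0.44 and 0.39). The call of *Hsp90ab1* was lost with the same median in every group (0.02) and with the trend in transcript length, described below, taken out (0.39), and *Hsp90aa1* was called higher at Zt +6 with quantile normalization (0.59). The ratio of *Hsp90aa1* to *Hsp90ab1* within a group was 0.609 (WT) against 0.458 (*Snord116del*) at Zt +6 and 0.774 against 0.897 at Zt +16. Multiplying all values of a group by a constant leaves this ratio unchanged, but quantile normalization and taking out the length trend do not. Of the *Hsp90aa1* transcript, 84.5% is found at 3 other places at 98% identity or more, against 6.83% of that of *Hsp90ab1*.

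*Hsph1* encodes the HSP110 that exchanges nucleotide on HSP70. It lies at chr5:150416862-150438951 (mm9, minus strand). The stretch of 30 bases around the heat shock element before its start, from RefSeq (GRCm38.p6, chr5:149636351-149636380, minus strand), is shown with the element in capitals.
Hsph1: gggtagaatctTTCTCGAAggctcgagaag
This 2-unit element begins 33 bases before the start, and a 3-unit element, a TTCNNGAA with a further TTC after another NN, begins at base 37 after it. At Zt +6 *Hsph1* had 14.5 FPKM in WT against 38.2 in *Snord116del*, and at Zt +16 8.75 against 12.2. The *Snord116del* Zt +6 value was far above the other 3, and on the deposited scale the range of *Hsph1* over the groups, 4.36-fold, was the widest of the 10 genes. It was 2.24-fold with the same median in every group, against 5.29-fold for *Dnajb1* and 4.72-fold for *Hspb1*. *Hsph1* was higher in *Snord116del* at Zt +6 (log2 ratio 1.33, above 88.8% of tested genes), was not called at Zt +16 (0.44), and was lower at Zt +16 than at Zt +6 in WT (-0.67) and in *Snord116del* (-1.57). The call between genotypes at Zt +6 was lost with the same median in every group (0.54) and with the length trend taken out (0.58). The 5 tested genes with the most similar profile were *Baalc*, *Ap2b1*, *Eif3a*, *Pcnxl2* and *Rnf130*, at distances of 0.031 to 0.060. *Baalc*, the closest, had 11.0, 29.5, 6.58 and 9.01 FPKM in the order used for *Hsph1*.

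*Dnajb1* encodes the HSP40 that works with the HSP70 of the cytosol and with *Hsph1* in pulling aggregated proteins apart. It lies at chr8:86132074-86135801 (mm9, plus strand), and neither heat shock motif was found in its RefSeq windows. At Zt +6 *Dnajb1* had 23.4 FPKM in WT against 11.7 in *Snord116del*, and at Zt +16 23.3 against 44.1. The WT values were the same at both times to within 1%, at a ratio of 0.996, while the *Snord116del* values lay on either side of them. It was called lower in *Snord116del* at Zt +6 (log2 ratio -0.94, above only 3.44% of tested genes) and higher at Zt +16 (0.89, above 97.3%). The 2 ratios differ by 1.83 on the log2 scale, by 2.15 with the same median in every group and by 1.21 where all groups were given the same total FPKM. The call at Zt +16 was lost with the same median (0.44), the same total (0.25), quantile normalization (0.31) and the length trend taken out (0.50). Both calls were lost with a 2-fold rule. Of the tested genes, 469 (4.55%) were likewise lower at Zt +6 and higher at Zt +16, and 4 were the other way round. No stretch of the *Dnajb1* transcript is found elsewhere at 98% identity over 100 bases. Shorter or less similar stretches were not searched.

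*Hspb1* encodes the small heat shock protein HSP25, which in brain is best known from glia and motor neurons. Its promoter, from RefSeq (GRCm38.p6, chr5:135887669-135887918, plus strand), is shown because it holds a pair of 2-unit heat shock elements, in capitals.
Hspb1: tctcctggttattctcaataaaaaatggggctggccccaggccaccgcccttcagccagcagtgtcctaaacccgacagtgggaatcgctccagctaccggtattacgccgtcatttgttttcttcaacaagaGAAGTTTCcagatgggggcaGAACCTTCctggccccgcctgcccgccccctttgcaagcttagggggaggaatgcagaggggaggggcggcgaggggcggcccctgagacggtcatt
They begin 117 and 97 bases before the start. At Zt +6 *Hspb1* had 21.3 FPKM in WT against 14.0 in *Snord116del*, and at Zt +16 27.8 against 46.9. Its order over the groups was that of *Dnajb1* in *Snord116del*, low at Zt +6 and high at Zt +16, with the WT values between. It was called higher in *Snord116del* at Zt +16 (log2 ratio 0.73), and its ratio at Zt +6, -0.57, lay just short of the threshold. Its ratios with the same median in every group were -1.35, called lower, at Zt +6 and 0.28, not called, at Zt +16. *Hspb1*, at chr5:136363789-136365433 (mm9, plus strand), has the shortest transcript of the 10, 930 bases, and 86.0% of it is found at the pseudogene *Hsp25-ps1*.

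*Hspd1* encodes HSP60, the chaperonin of mitochondria, and lies head to head with *Hspe1*, which encodes the HSP10 lid of the same chamber. In RefSeq 215 bases separate a start of *Hspd1* from that of *Hspe1* (GRCm38.p6, chr1:55087933-55088147). The 30 bases around the overlapping heat shock elements in this interval (chr1:55088053-55088082, strand of *Hspe1*) are shown because both genes share them.
Hspd1 and Hspe1: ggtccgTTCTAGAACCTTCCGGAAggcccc
The capitals hold overlapping 3-unit elements that begin 89 (TTC first) and 84 (GAA first) bases before the *Hspe1* start, and a 3-unit element of either kind is in 0.676% of the promoters. At Zt +6 *Hspd1* had 4.32 FPKM in WT against 10.4 in *Snord116del*, and at Zt +16 3.29 against 4.37. It was higher in *Snord116del* at Zt +6 (log2 ratio 1.10, but 0.38 and not called with the same median in every group) and not called at Zt +16 (0.32). Its partner *Hspe1*, not one of the 10 genes, had 83.6 and 34.3 FPKM at Zt +6 and 139 and 201 at Zt +16, and so was lower in *Snord116del* at Zt +6 (log2 ratio -1.26) where *Hspd1* was higher.

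The ratio of *Hspd1* to *Hspe1* within a group was 0.052 (WT) against 0.304 (*Snord116del*) at Zt +6 and 0.024 against 0.022 at Zt +16. That of *Hsph1* to *Dnajb1* was 0.623 and 3.25 at Zt +6 and 0.376 and 0.277 at Zt +16. Both ratios were thus highest in the *Snord116del* Zt +6 group, and the ratio of *Hsp90aa1* to *Hsp90ab1* was lowest there. Transcript lengths differ within all these pairs: 2423 bases for *Hspd1* against 774 for *Hspe1*, and 3802 for *Hsph1* against 2263 for *Dnajb1*. In these 2 pairs the gene with the longer transcript is on top of the ratio. So it is in the pair whose ratio was lowest there, with 3281 bases for *Hsp90aa1* against 2520 for *Hsp90ab1*. Also, 92.2% of the *Hspd1* transcript and 69.3% of that of *Hspe1* are found at 1 other place each at 98% identity or more. The part of length and of shared reads in the ratios was not tested. The ratios of *Hspd1* to *Hspe1* and of *Hsph1* to *Dnajb1* were chosen after the levels were seen.

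**Figure D2:**
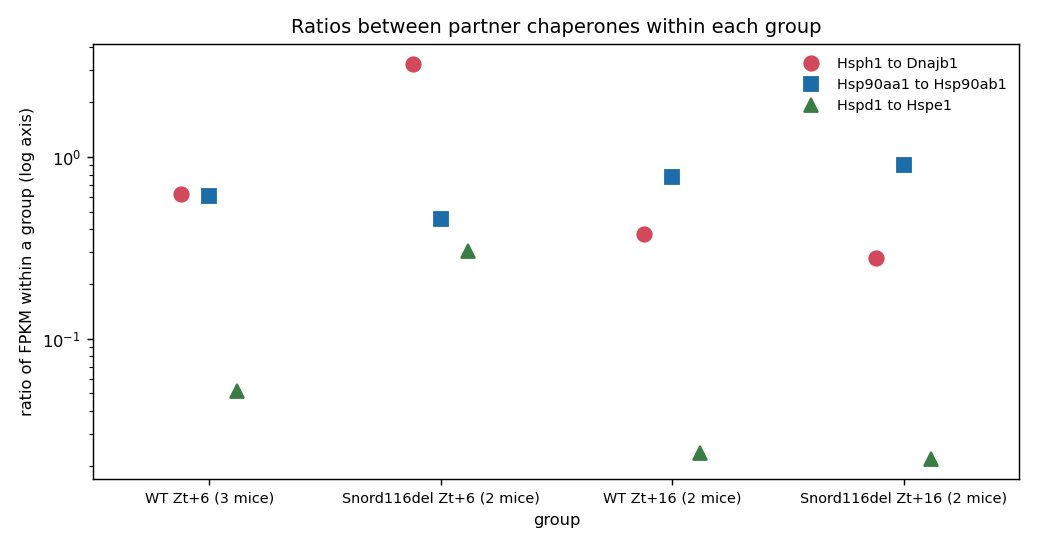
Ratio of the FPKM of 2 partner chaperones within each group, on a log axis, for *Hsph1* to *Dnajb1* (circles), *Hsp90aa1* to *Hsp90ab1* (squares) and *Hspd1* to *Hspe1* (triangles); points have no error bar. The *Snord116del* Zt +6 group has the highest circle (3.25) and triangle (0.304) and the lowest square (0.458).

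Loss of *Snord116* in the light phase was the first comparison. At Zt +6, *Hspa5*, *Hsp90ab1*, *Hsph1* and *Hspd1* were higher in *Snord116del* than in WT, with FPKM 1.60-, 1.81-, 2.62- and 2.41-fold those of WT, and *Dnajb1* was lower, at 0.502 of WT. The other 5 chaperones were not called, and of these *Hspa1a*, *Hspa1b*, *Hspa8* and *Hsp90aa1* had ratios above 0 on the deposited scale, all below 0 with the same median in every group, and *Hspb1* below 0 on both. The 4 higher of 10 stand against 49.3% of all tested genes that were higher, and the 1 lower against 7.62%. The median log2 ratio of the 10 was 0.43, against 0.57 over all tested genes. On the scale with the same median in every group none of the 10 was higher, against 15% of tested genes, and *Dnajb1* (-1.71) and *Hspb1* (-1.35) were lower, against 24.4%. With quantile normalization the higher genes were *Hspa8*, *Hsp90aa1*, *Hsp90ab1* and *Hsph1*, against 20.7% of tested genes, and the lower were *Dnajb1* and *Hspb1*, against 21%. With the same total the 4 higher genes were those of the deposited scale, against 50.9%, and *Dnajb1* and *Hspb1* were lower, against 8.21%.

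Loss of *Snord116* in the dark phase was the second comparison. At Zt +16, *Dnajb1* and *Hspb1* were higher in *Snord116del*, with FPKM 1.89- and 1.69-fold those of WT, and none of the 10 was lower. On the deposited scale all 10 ratios were above 0, from 0.07 for *Hspa5* to 0.89 for *Dnajb1*, with a median of 0.40 against 0.35 over all tested genes. The background was 19% of tested genes higher and 0.204% lower. With the same median in every group none of the 10 was called in either direction, against 1.22% and 0.515% of tested genes, and the ratios ran from -0.39 for *Hspa5* to 0.44 for *Dnajb1*. None was called with the same total (0.311% higher, 0.991% lower) or with quantile normalization (0.388% and 0.534%) either.

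**Figure D3:**
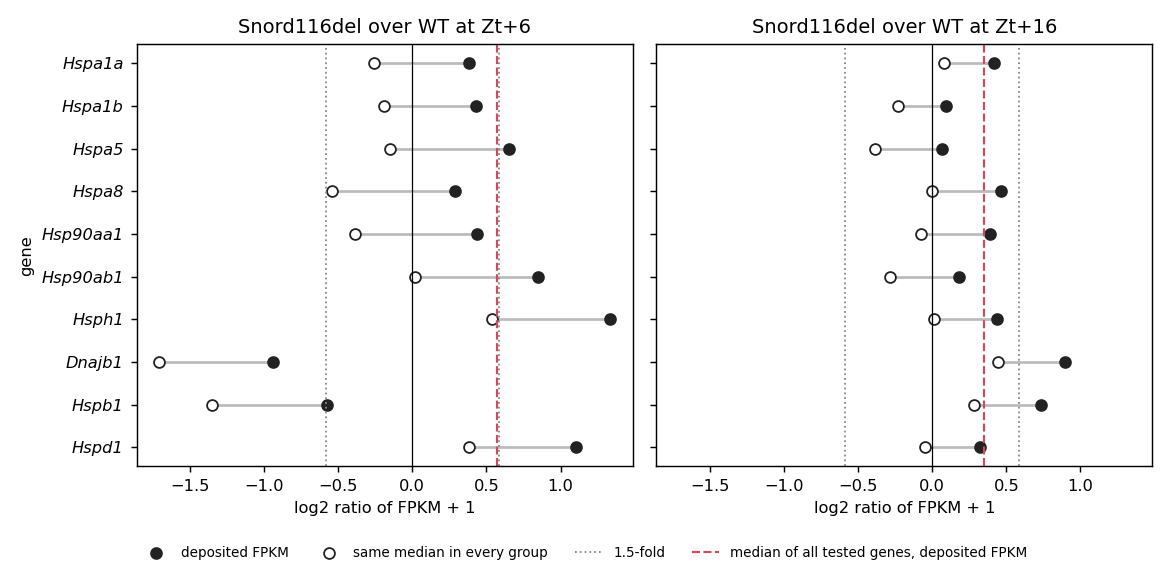
Log2 ratio of FPKM + 1 of *Snord116del* over WT for each chaperone at Zt +6 (left) and Zt +16 (right), from the deposited FPKM (filled) and with the same median FPKM in every group (open), with no error bars; dotted lines mark 1.5-fold and the dashed line the median of all tested genes. *Dnajb1* and *Hspb1* lie left of 0 at Zt +6 on both scales, at -0.94 and -0.57 on the deposited one, and right of 0 at Zt +16. *Hspa1b*, *Hspa5*, *Hspa8* and *Hsp90aa1* cross 0 between the scales at both times.

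The time of day was compared within each genotype. In WT cortex 1 of the 10 was called between the light and the dark phase on the deposited scale: *Hsph1* was lower at Zt +16 (14.5 to 8.75 FPKM), and the other 9 were not called, with log2 ratios between -0.31 for *Hspd1* and 0.37 for *Hspb1*. The background was 5.71% of tested genes higher and 10.3% lower at Zt +16. None was called with the same median in every group (10.8% and 9.48%) or with the trend in transcript length taken out (3.23% and 6.62%), whereas 5 of the 10 were lower with the same total (29% of tested genes lower, 0.505% higher) and 3 with quantile normalization (8.42% and 3.27%). In *Snord116del* cortex 6 of the 10 were called. *Dnajb1* (log2 ratio 1.82) and *Hspb1* (1.68) were higher at Zt +16, and *Hspa1b* (-0.60), *Hsp90ab1* (-0.91), *Hsph1* (-1.57) and *Hspd1* (-1.09) were lower, against 25% of tested genes higher and 39.1% lower. With the same median in every group *Hspa8*, *Dnajb1* and *Hspb1* were higher (35% of tested genes) and *Hsph1* and *Hspd1* lower (26.5%). With the same total 2 were higher (8.31%) and 8 lower (66.6%), and with quantile normalization 2 were higher (30.3%) and 6 lower (28.6%). The comparisons share groups with those between genotypes, so the *Snord116del* Zt +6 values enter both. The median ratio of the 10 was -0.12 in WT and -0.33 in *Snord116del*, against -0.04 and -0.24 over all tested genes.

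Transcript length moved with these ratios across the whole table. Over the 10165 tested genes with a length, Spearman's rho between the length of the longest coding transcript and the log2 ratio of *Snord116del* over WT was 0.65 at Zt +6 and -0.39 at Zt +16. The correlation is across genes of the same libraries, which are not independent. At Zt +6 the median ratio was -0.45 for genes of up to 1000 bases, the class of *Hspb1*, 0.44 for those of 2000 to 3000 bases, the class of *Hspa1a*, *Hspa1b*, *Hspa5*, *Hspa8*, *Hsp90ab1*, *Dnajb1* and *Hspd1*, and 0.78 for those of 3000 to 5000 bases, the class of *Hsp90aa1* and *Hsph1*. *Hspb1*, at -0.57, lay near the median of its class, whereas *Dnajb1*, at -0.94, lay far below that of its own, in which 3.03% of genes were lower. At Zt +16 *Dnajb1*, at 0.89, lay above its class median of 0.38 and *Hspb1*, at 0.73, near its class median of 0.59.

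With the length trend taken out by a smooth curve, *Hspd1* (0.67) was higher and *Dnajb1* (-1.33) lower at Zt +6, against 12.3% and 12.7% of tested genes, while *Hsph1* (0.58), *Hsp90ab1* (0.39) and *Hspa5* (0.17) were not called. At Zt +16 none of the 10 was called, against 0.866% and 0.797%, with *Dnajb1* at 0.50 and *Hspb1* at 0.17. Between times in *Snord116del*, *Dnajb1* (1.77) was higher and *Hsp90ab1* (-0.86), *Hsph1* (-1.03) and *Hspd1* (-1.08) were lower, and *Hspb1* (0.48) was no longer called; 24.8% of tested genes were higher and 24.8% lower. The difference of the *Dnajb1* ratios between times was 1.83 on this scale as well, while that of *Hspb1* went from 1.31 to 0.41. What stands behind the trend was not tested.

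**Figure D4:**
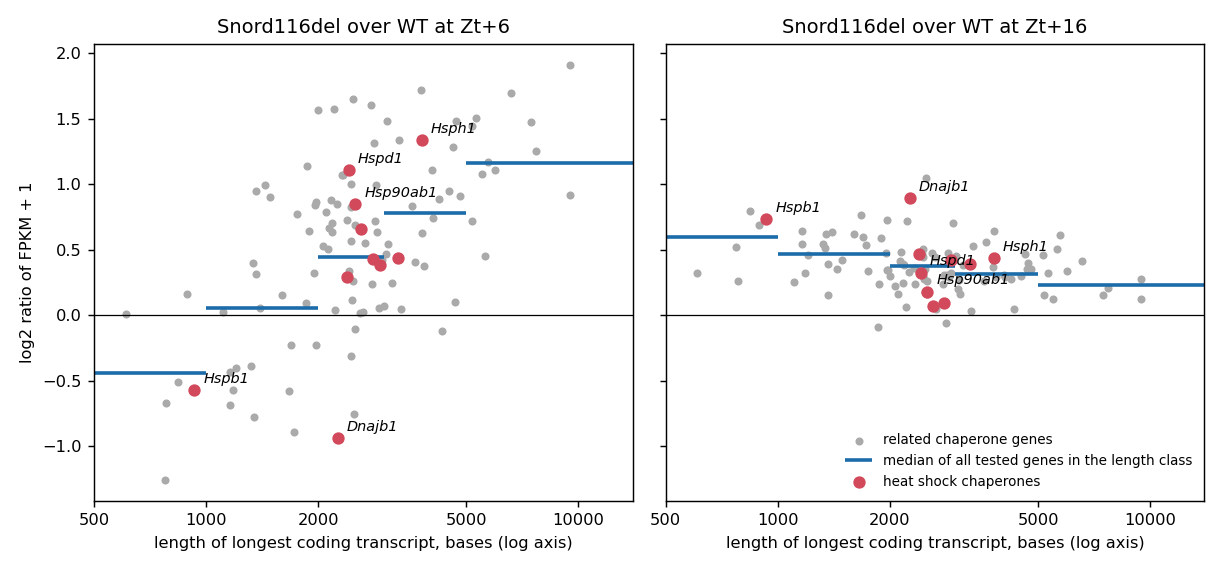
Log2 ratio of FPKM + 1 of *Snord116del* over WT at Zt +6 (left) and Zt +16 (right) against the length of the longest coding transcript on a log axis, for the 10 chaperones (red) and related chaperone genes (grey); blue bars are medians of all tested genes in 5 length classes, of which the first starts and the last ends beyond the axis. At Zt +6 the bars rise from -0.45 to 1.16 and *Dnajb1*, at -0.94, lies below its class.

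Other genes of the chaperone system were taken from 10 lists with 104 genes in all, of which 99 were tested. The counts below stand against 49.3% of all tested genes higher and 7.62% lower at Zt +6, with a median log2 ratio of 0.57, and 19% higher and 0.204% lower at Zt +16, with a median of 0.35. At Zt +6, 51 were higher in *Snord116del* and 6 lower, with a median log2 ratio of 0.63, and at Zt +16, 15 were higher and 0 lower, with a median of 0.35, both near those shares. The 6 lower genes at Zt +6 were *Dnajc19*, *Dnajc30*, *Hspb3*, *Hspe1*, *Ahsa1* and *Atf4*. Of these *Dnajc19*, *Dnajc30* and *Ahsa1* were higher at Zt +16, as *Dnajb1* was, against 4.55% of all tested genes with this pattern. With the length trend taken out, the ratios at Zt +6 and Zt +16 were -1.21 and 0.67 for *Dnajc19*. They were -0.51 and 0.12 for *Dnajc30* and -0.72 and 0.13 for *Ahsa1*. With the same median in every group 14 were higher and 27 lower at Zt +6, and 1 was higher at Zt +16, *Dnajc19*, against 15% and 24.4% of all tested genes at Zt +6 and 1.22% higher at Zt +16. Transcript length also moved with the ratios of the 99 genes, with a Spearman's rho of 0.53 at Zt +6 and -0.30 at Zt +16.

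Among further HSP70 and HSP110 genes, 5 of 9 tested were higher at Zt +6 and 1 at Zt +16. *Hspa4l*, an HSP110 gene, went from 3.58 FPKM in WT to 16.2 in *Snord116del* at Zt +6 and from 1.52 to 2.04 at Zt +16. *Hspa14* had the lowest ratios of the list (-0.12 and 0.05), and *Hspa12a* (1.17 and 0.61) was the one called at Zt +16. Both further HSP90 genes were higher at Zt +6: *Hsp90b1*, the HSP90 of the endoplasmic reticulum, with a log2 ratio of 1.31, and *Trap1*, that of mitochondria, with one of 1.07. With the same median in every group neither was called at Zt +6, and of the HSP70 and HSP110 genes 1 was higher and 2 were lower.

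Of 28 further J protein genes, 17 were higher and 2 lower at Zt +6 and 3 were higher at Zt +16; with the same median in every group 6 were higher and 7 lower at Zt +6. *Dnajc5*, the cysteine string protein of synaptic vesicles, had the largest ratio at Zt +6, going from 6.52 to 23.3 FPKM, and *Dnajb5* had 4.98 and 14.1. With the length trend taken out their log2 ratios were 0.57, short of the threshold, and 0.70. *Dnajc19*, a J protein of the mitochondrial import motor, was at 14.5 and 8.19 FPKM at Zt +6 and at 15.7 and 33.5 at Zt +16, which placed it with *Dnajb1*. Of 5 tested small heat shock protein genes, 1 was higher at Zt +6 (*Hspb6*, 0.95) and 1 lower (*Hspb3*, -0.67), and *Hspb2* (0.79) was higher at Zt +16. With the same median in every group none of the 5 was higher and 3 were lower at Zt +6.

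Of 9 chaperonin genes, 5 were higher and 1, *Hspe1*, lower at Zt +6, and 2 were higher at Zt +16. With the same median in every group none was higher and 2 were lower at Zt +6. *Tcp1*, a subunit of the cytosolic chaperonin, had the largest ratio at Zt +6 (log2 1.00), and *Cct6a* (0.62) at Zt +16. In the mitochondrial list 3 of 8 were higher at Zt +6, with *Yme1l1*, a protease of the inner membrane, at 1.48, and 1, again *Hspe1*, was lower. *Lonp1*, the matrix protease, was higher at Zt +16 (0.70). With the same median in every group 1 of this list was higher and 2 were lower at Zt +6. Of 22 cochaperone genes, 10 were higher and 1 lower at Zt +6 and 6 higher at Zt +16. With the same median in every group 2 of them were higher and 7 lower at Zt +6. *Chordc1*, which binds HSP90, went from 1.27 to 5.76 FPKM at Zt +6, and *Ahsa1*, which speeds the ATP step of HSP90, from 58.8 to 33.9 at Zt +6 and from 88.7 to 137 at Zt +16. *Stub1*, a ubiquitin ligase of chaperone clients, had log2 ratios of -0.58, just short of a call, and 0.76.

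The endoplasmic reticulum list, to which *Hspa5* belongs by role, had 13 of 19 genes higher and 1 lower at Zt +6 and 1 higher at Zt +16, and with the same median in every group 5 higher and 3 lower at Zt +6. *Canx*, the lectin chaperone calnexin, went from 11.7 to 41.0 FPKM at Zt +6, and *Atf4*, a transcription factor of the stress response, from 36.4 to 19.1. *Ddit3*, a target of ATF4, was the gene called at Zt +16 (log2 ratio 0.69). The regulators of the heat shock response were low apart from *Hsbp1*, which binds and restrains heat shock factor 1. *Hsf1* went from 1.86 FPKM to 3.92 at Zt +6 (called higher, log2 ratio 0.78) and from 1.81 to 2.14 at Zt +16. *Hsf2* had ratios of 0.55 and 0.05 and *Hsbp1* of -0.44 and 0.54, all not called on the deposited scale. *Hsf4* fell under the filter on low values. With the same median in every group none of the tested regulators was higher at Zt +6, so the call of *Hsf1* was lost, and 1 was lower. Cold-inducible RNA-binding proteins, which move opposite to body temperature, were not called between genotypes on the deposited scale either: *Cirbp* had ratios of -0.39 and 0.55 and *Rbm3* of 0.24 and 0.31. *Cirbp* was lower at Zt +6 with the same median in every group (-1.09), and between times in *Snord116del* it was higher at Zt +16 on the deposited scale (1.42).

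Markers of cell types and regions were summed per group to see what else moved. Neuron markers summed to 694 and 963 FPKM at Zt +6 in WT and *Snord116del* and to 570 and 780 at Zt +16, and oligodendrocyte markers to 445, 703, 718 and 1035 in the same order. Astrocyte markers summed to 308, 359, 480 and 732 FPKM, of which *Aldoc* made up 275, 261, 465 and 713, while 4 of the 6 (*Gfap*, *Aqp4*, *Slc1a3* and *Gja1*) were lower at Zt +16 than at Zt +6 in both genotypes. Microglia markers summed to 68.4, 100, 78.1 and 145, and endothelium markers to 45.2, 83.5, 50.6 and 69.8. Striatal markers, which should be low in dissected cortex, summed to 165, 137, 285 and 468. *Penk* made up 145 and 264 of the WT sums and 429 of the *Snord116del* sum at Zt +16, with a log2 ratio of -0.56, not called, at Zt +6, and the other 4 tested striatal markers were called higher in *Snord116del* at Zt +6. Choroid plexus markers, of which 1 of 5 (*Ttr*) passed the filter on low values, summed to 203, 185, 26.1 and 31.1. Immediate early genes summed to 159, 262, 86.2 and 88.7, the order of *Hsph1*, and *Arc* alone made up 49.5, 130, 14.4 and 14.8 of these. At Zt +6 the fold rule called higher 4 of 7 neuron, 5 of 6 astrocyte, 3 of 6 oligodendrocyte, 4 of 7 microglia, 5 of 5 endothelium and 4 of 5 striatal markers and 4 of 10 immediate early genes, with 1 further gene of the last list lower, against 49.3% of all tested genes higher. The higher ones were 2, 2, 1, 1, 1, 2 and 0 in the same order with the same median in every group, against 15%, and no listed marker was at 0 in a group. The lower ones on that scale were 1, 1, 2, 1, 0, 1 and 4, against 24.4%. At Zt +16 the fold rule called 1, 1, 3, 5, 1, 4 and 0 of these markers higher in *Snord116del* in the same order, against 19%. With the same median none was higher at Zt +16, against 1.22%. The part of any of these in the chaperone values was not tested.

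The second readout asked whether the chaperone genes lie at DNA that was pulled down with *116HG*. Each list holds peaks called against an input library, from whole brain of adult mice: replicates 1 and 2 with oligos against *116HG* in WT, 1 library with the same oligos in *Snord116del*, and 1 library for each genotype with non-specific control (NSC) oligos. All 10 genes had a peak within 2 kb in WT *116HG* replicate 1, but so did 93.6% of the tested genes that have a place in the annotation. None of the 10 had one in WT *116HG* replicate 2 (17.5% of tested genes), in WT NSC (2.53%) or in *Snord116del* *116HG* (2.86%). In *Snord116del* NSC 3 had one (10.6%): *Hsph1*, in an intron at 22.8-fold over input, and *Dnajb1* and *Hspb1*, centred on an exon at 26.3- and 21.0-fold. A peak within 10 kb of a peak of the other WT *116HG* replicate was found at 1 of the 10, *Hsp90ab1* (18% of tested genes), where 11 of the 12 replicate 1 peaks are that near to a single replicate 2 peak 4.65 kb outside the gene.

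The replicate 1 peaks followed the exons. There were 78 of them within 2 kb of the 10 genes, and 73 (93.6%) were centred on an exon of a coding transcript, against 76.8% of the 66319 at all tested genes. Of the 81 such exons of the 10 genes, 67 were touched by a peak, 18 of 19 in *Hsph1*, 11 of 12 in *Hsp90ab1* and in *Hsp90aa1*, 9 of 10 in *Hspa8* and 8 of 8 in *Hspa5*, but 5 of 12 in *Hspd1* and 2 of 4 in *Dnajb1*. The share of exonic bases inside peaks was highest in *Hspa5* (98.5%) and *Hsp90ab1* (95.3%), was between 81.1% and 84.0% in *Hspa8*, *Hsp90aa1* and *Hsph1*, and was lowest in *Hspa1a* (13.2%), with a median of 66.4% against 24.3% over tested genes. In *Hspd1* the highest peak (137-fold) lies outside the gene, on the *Hspe1* side of its start.

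The fold over input of these peaks ordered the genes nearly as their transcript levels did. The highest peak was 452-fold in *Hspa8* and in *Hsp90ab1*, 431-fold in *Hsp90aa1*, 298-fold in *Hsph1*, 164-fold in *Hspa5* and *Dnajb1*, 61.6-fold in *Hspb1* and 51.3-fold in *Hspa1a* and *Hspa1b*. Spearman's rho between the highest fold and the WT Zt +6 FPKM was 0.89 over the 10 genes, and between the share of exonic bases in peaks and FPKM it was 0.68 over the 10 and 0.73 over 10074 tested genes. The part of transcript level in the replicate 1 peaks was not tested. The deposited fold is the authors' value and has no error.

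**Figure D5:**
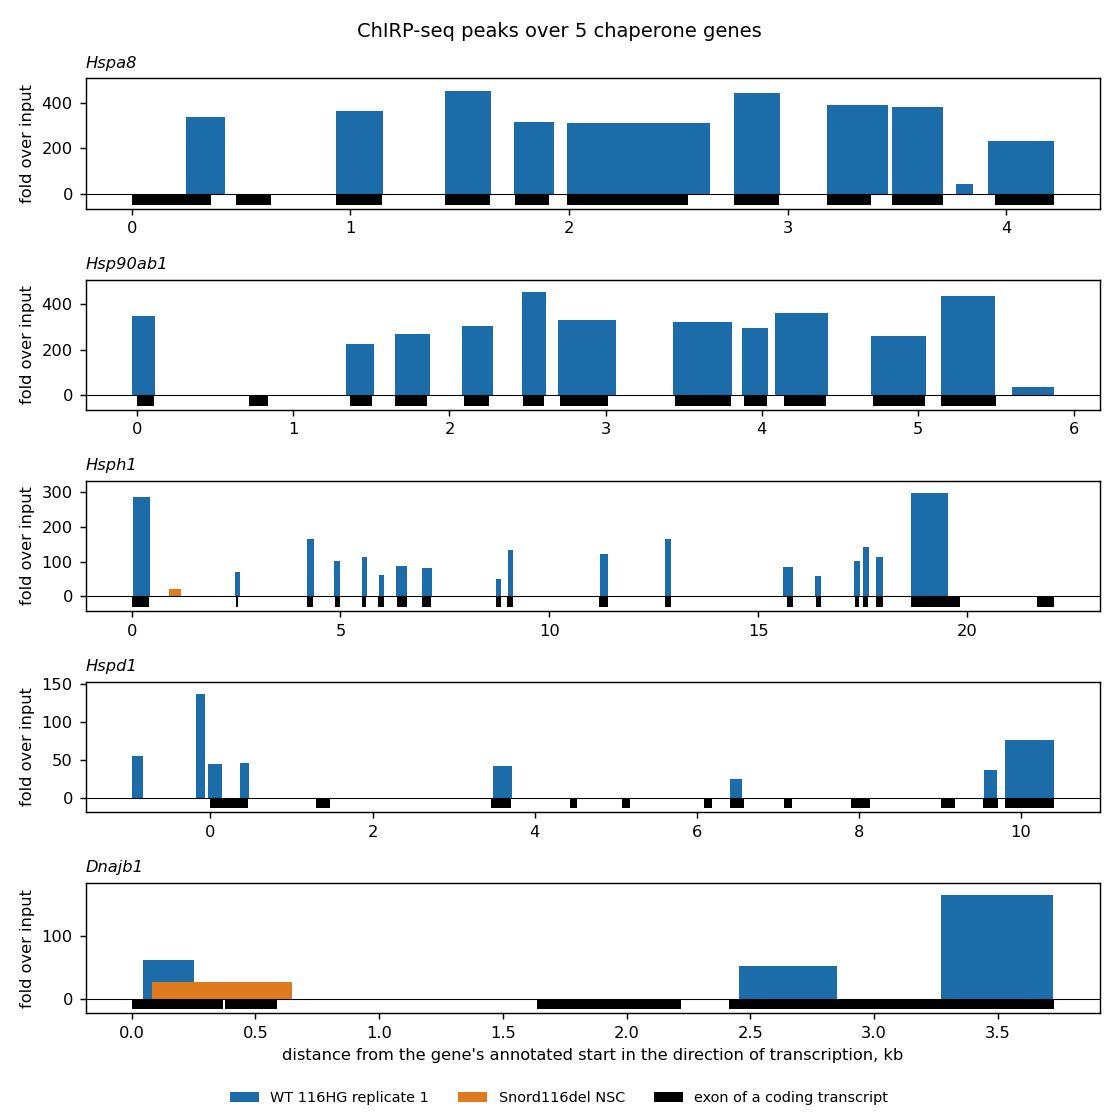
Peaks of WT *116HG* replicate 1 (blue) and *Snord116del* NSC (orange) over 5 chaperone genes: the x axis is the distance in kb from the annotated start in the direction of transcription, the height is fold over input, and black boxes are exons of coding transcripts. Blue peaks sit on the exons, up to 452-fold in *Hspa8* and *Hsp90ab1*, and none is centred in an intron except for 1 in *Hspa8*.

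The highest replicate 1 peaks that avoid untranslated exon parts are shown for *Hspa8* and *Hsp90aa1*, because their edges follow the exon. They are read on the plus strand of mm9, at chr9:40610498-40610709 (452-fold) and chr12:111932774-111932917 (268-fold), with coding bases in capitals and intron bases in lower case.
Hspa8: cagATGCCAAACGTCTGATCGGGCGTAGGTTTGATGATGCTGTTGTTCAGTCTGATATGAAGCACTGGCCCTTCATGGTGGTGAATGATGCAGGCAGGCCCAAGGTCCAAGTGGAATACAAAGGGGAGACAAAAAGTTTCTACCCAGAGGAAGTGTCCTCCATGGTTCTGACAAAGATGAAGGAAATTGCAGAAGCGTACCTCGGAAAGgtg
Hsp90aa1: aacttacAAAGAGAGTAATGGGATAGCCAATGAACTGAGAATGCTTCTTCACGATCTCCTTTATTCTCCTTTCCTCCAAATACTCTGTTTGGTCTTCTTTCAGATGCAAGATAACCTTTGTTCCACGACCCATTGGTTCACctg
Of the 212 and 144 bases of these peaks, 206 and 134 are coding. By contrast, the replicate 2 peak nearest to *Hsp90ab1*, at chr17:45714868-45714937 (mm9), lies in no annotated gene.
Replicate 2 peak: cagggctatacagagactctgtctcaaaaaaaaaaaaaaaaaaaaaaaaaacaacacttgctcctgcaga
It has a GC content of 32.9% and a run of the base A, and shares no base with a replicate 1 peak of *Hsp90ab1*.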

How the data were processed

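RNA-seq of adult cortex (9 mice in 4 groups) and 5 ChIRP-seq peak lists of adult brain were used. Per the submitters' processing notes and the paper's methods, the authors aligned RNA-seq reads with TopHat2 2.0.5 to mm9. They deposited 1 Cuffdiff 2.0.2 FPKM value per gene and group. The number of mice behind each value is taken from the labels and the paper's methods, and their spread is not known. The authors' deposited log2 fold changes and q-values, which compare genotypes at each time, were not used. ChIRP reads were aligned with Bowtie2 2.0.0 and peaks called per library with MACS 1.4.2, and the deposited fold over input is the authors' ratio for each peak. That of the second WT *116HG* replicate gives no fold. No count of reads per gene was analysed here, so no interval on depth is given.

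The fold rule (FPKM + 1, 1.5-fold, at least 1 FPKM in the higher group, mean of at least 1 FPKM) was applied to the whole table and read for the members. Other scales were the same median, the same total, quantile normalization and a lowess curve (fraction 0.3) of the log2 ratio on log transcript length. Genes were joined by symbol to GENCODE M1 (NCBIM37, the assembly of mm9), with 21853 of 23235 matched, and 98.7% of tested genes had a length. Exons are those of coding transcripts. Peaks were joined within 2 kb of a gene, and replicates within 10 kb. Promoters are RefSeq windows of 250 bases before to 50 after a start, present for 7 of the 10 genes, and only bases before the start are printed. Transcripts were searched against the genome with blastn 2.17.0. The scripts used Python 3.11.15 with pandas 2.3.3, numpy 2.4.6, statsmodels 0.14.6, scipy 1.17.1, pysam 0.24.0, matplotlib 3.10.9 and samtools 1.23.1. The fold rule and the joining of peaks by distance were checked on simulated data, which held no shift of the median and no length trend. The other steps were not checked in this way.

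The members, gene lists and rules were chosen with earlier results of these data known. Named genes are the 10 members, the highest and lowest ratio of each related list at each time, the heat shock factor and cold-inducible lists, and the 5 nearest profiles of *Hsph1* and *Hspa8*. *Dnajc30*, named for its pattern, *Arc* and the named astrocyte and striatal markers were chosen after their values were seen. So were the endoplasmic reticulum stress element and the ratios of *Hspd1* to *Hspe1* and of *Hsph1* to *Dnajb1*.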

Additional observations from a re-analysis of the deposited data

Results flagged for a closer look

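*Dnajb1* was picked out because it passed the 1.5-fold rule in opposite directions in the genotype comparisons, lower in *Snord116del* at Zt +6 (23.4 FPKM in WT and 11.7 in *Snord116del*) and higher at Zt +16 (23.3 and 44.1). The log2 ratio at Zt +16 minus that at Zt +6 was 1.83, and the difference was not tested, since the table has no value per mouse. It was 2.15 with the same median in every group, 1.86 with quantile normalization, 1.83 with the length trend taken out and 1.21 where all groups were given the same total FPKM. The ratio at Zt +16 was not called with the same median (0.44), the same total (0.25), quantile normalization (0.31) or the length trend taken out (0.50). With a 2-fold rule *Dnajb1* was called at neither time. Over all tested genes the median of this difference was -0.22.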

How the results depend on the processing

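No paired analysis was possible because the table has 1 value per group and no columns per mouse. For the same reason leaving out single mice was not run. The 5 calls at Zt +6 became 2 with the same median in every group, with a 2-fold rule and with the length trend taken out. With quantile normalization there were 6, of other genes in part: *Hspa8* (1.19), *Hsp90aa1* (0.59) and *Hspb1* (-1.11) were called and *Hspa5* (0.55) and *Hspd1* (0.53) were not. The 2 calls at Zt +16 became 0 with the same median, the same total, quantile normalization, a 2-fold rule and the length trend taken out. In WT the 1 call between times became 0 with the same median, a 2-fold rule and the length trend taken out, 5 with the same total and 3 with quantile normalization. In *Snord116del* the 6 calls became 10 with the same total. Of the ratios called on the deposited scale or under the other setting, those of opposite sign were -0.15 for *Hspa5* at Zt +6 with the same median; between times in *Snord116del*, -0.82 for *Hspa8* and -1.03 for *Hsp90aa1* with the same total and -1.96 and -1.04 with quantile normalization; and -0.59 for *Hspa8* in WT with quantile normalization. Of the 40 ratios, further ones called on neither scale changed sign: 13 with the same median, among them *Hspa1a* (-0.26), *Hspa1b* (-0.19), *Hspa8* (-0.54) and *Hsp90aa1* (-0.38) at Zt +6, 12 with the same total, 12 with quantile normalization and 8 with the length trend taken out. The cause was not tested. With the same median, *Hspa8* (0.77) and not *Hsp90ab1* (-0.42) was called between times in *Snord116del*.

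The other settings, a pseudocount of 0.1, no filter on low values and a mean of at least 5 FPKM, kept the 4 counts of calls within 1.5 times. Over all tested genes the same median in every group moved the split at Zt +6 from 5073 higher and 785 lower to 1548 and 2516, and at Zt +16 from 1959 and 21 to 126 and 53. Of the peak counts, that of WT *116HG* replicate 2 became 1 within 10 kb of a gene, and that of *Snord116del* NSC became 1 with the upper quartile of the fold over input. The count at replicated peaks, 1, became 2 within 10 kb of a gene, 0 with direct overlap or within 2 kb, 7 within 50 kb, and ranged from 0 without WT *116HG* replicate 1 to 10 without replicate 2. With group values only and the authors' own tests not used, no difference was set against the spread between mice.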
